A study of Mus musculus with 6 samples.

Results

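The transcripts described here encode 36 proteins of the lysosome, chosen by name as a set of cathepsins, other hydrolases, lysosomal membrane proteins and the transcription factor Tfeb. All 36 were found among the 23420 genes of the deposited tables, and all 36 had 10 or more counts in 3 or more libraries, as did 12713 genes in all. They were measured by RNA-seq of LSK cells, the bone marrow fraction without lineage markers that carries Sca-1 and c-Kit and holds stem cells and multipotent progenitors, with 1 library per mouse. The donors were 3 bcat(ex3)osb mice, whose osteoblasts (cells that form bone) carry a constitutively active β-catenin, and 3 wild-type (WT) littermates. The sources used here do not give age, strain background, the number of cells sorted or the promoter that restricts the mutation to osteoblasts. The mutation lies in osteoblasts and not in the LSK cells that were sequenced, so the Ctnnb1 transcript of these libraries does not check the genotype.

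Lysosomes are acidic organelles in which proteases, glycosidases and lipases break down material delivered by endocytosis, phagocytosis and autophagy. The V-ATPase pumps protons into them, heavily glycosylated membrane proteins line them, and most soluble enzymes reach them through the mannose 6-phosphate receptors. TFEB, a basic helix-loop-helix factor, enters the nucleus when nutrient signalling at the lysosome falls and activates many lysosomal genes through E-boxes with the core CACGTG. In blood, lysosomal proteins are abundant in macrophages and granulocytes, and in stem cells lysosomes are known to take part in the maintenance of quiescence.

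Total counts ran between 15431235 and 19956774 per library. The label was checked against markers of the sorted fraction. Kit was between 345 and 725 CPM in bcat(ex3)osb mice and between 323 and 1002 CPM in WT mice. Of 10 markers listed for the fraction all were detected, and 9 had a negative log2 fold change. Lower without overlap were 3 of these 10 (30%), beside 7.67% of all genes tested. Ly6a, which encodes Sca-1, was at 81.5, 65.9 and 75.7 CPM in bcat(ex3)osb mice 1, 2 and 3 and at 148, 162 and 156 CPM in WT mice 1, 2 and 3. On a principal component with 50.3% of the variance, the library of bcat(ex3)osb mouse 2 stood apart from the other 5. It and the library of WT mouse 2 also had the highest shares of ribosomal protein transcripts, 5.47% and 4.20% of counts, against 2.10% to 3.00% in the other 4 libraries. Xist had 24 and 10 counts in bcat(ex3)osb mice 1 and 2 and 2517 to 5110 counts in the other 4 mice, so sex differed within the mutant group and between the groups.

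Most lysosomal transcripts differed little between the genotypes, and a few lay higher in every bcat(ex3)osb mouse than in any WT mouse. The macrophage and myeloid membrane protein Cd68 had the largest difference, a fitted 2.36-fold level relative to WT (95% interval 1.39 to 3.99), followed by the lysosomal α-mannosidase Man2b1 at 1.72-fold (1.25 to 2.37) and the aminopeptidase cathepsin H (Ctsh) at 1.64-fold (1.13 to 2.38). By edgeR's quasi-likelihood test with Benjamini-Hochberg adjustment over all 12713 genes, 0 of the 36 transcripts passed an adjusted p of 0.05 in either direction. Neither did any other gene, so the share of all genes called was 0% higher and 0% lower. Without adjustment, 5 of the 36 lay higher with a p under 0.05, or 13.9%, beside 3.42% of all genes, and 0 lay lower, beside 3.13% of all genes. Those 5 were Cd68, Man2b1, Ctsh, Ctss and Gusb. The count was 2 without WT mouse 3 and 3 without bcat(ex3)osb mouse 1, bcat(ex3)osb mouse 2 or WT mouse 1. Over all 12713 genes the higher count was 435 with all mice, and 263, 481, 382 and 287 without these mice, in that order. The count of lower transcripts was 1 without bcat(ex3)osb mouse 1 and 1 on log2 of FPKM plus 1. Of all genes, 534 and 640 were lower in these 2 settings. The count of higher ones was 8 with a block for the mouse number, where 884 of all genes were higher. It was 6 by DESeq2, by limma-voom and with an offset for gene length, beside 597, 394 and 728 of all genes. It was 3 with upper-quartile scaling, beside 358 of all genes. With sex as a covariate it was 1, Man2b1, beside 195 of all genes. By DESeq2, 2 of the 36 passed the adjusted threshold as higher, Man2b1 (log2 fold change 0.80, adjusted p = 0.0226) and Cd68 (1.25, adjusted p = 0.0452), and 0 as lower, where 0.81% and 0.543% of all genes were called higher and lower. limma-voom called 0 genes.

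Of the 36 transcripts, 23 had a positive and 13 a negative log2 fold change (bcat(ex3)osb over WT), where 50.2% of all genes were positive. Their median was 0.09, beside 0.00 over all genes tested, and it was -0.0023 without WT mouse 2 and 0.19 without WT mouse 1. All 3 bcat(ex3)osb mice lay above all 3 WT mice for 9 transcripts, or 25%, where 6.87% of all genes did, and below them for 2, or 5.56%, where 7.67% of all genes did. The 9 were Cd68, Man2b1, Ctsh, Ctss, Gusb, Ctsz, Scarb2, Laptm5 and Lamp1, and the 2 were Tpp1 and Ctsb. For 22 of the 36 the fitted log2 fold change lay within 0.25 of 0. The 95% interval of the difference, which is not adjusted for the number of genes, stayed within 1 log2 unit of 0 for 27 and reached past it for 9. Exons of Ctsa, Ctsb, Ctsd, Ctsl, Ctsz, Hexa, Glb1, Ppt1, Grn, Lamp1 and Npc1 overlap those of another annotated gene. The counts of these 11 are uncertain if strand was not used in counting. For Ctsd, Ctsl and Glb1 an overlapping gene lies on the same strand, so their counts are uncertain with either strand setting. In bulk RNA, fewer cells of a type and less RNA per cell cannot be told apart.

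**Figure D1:**
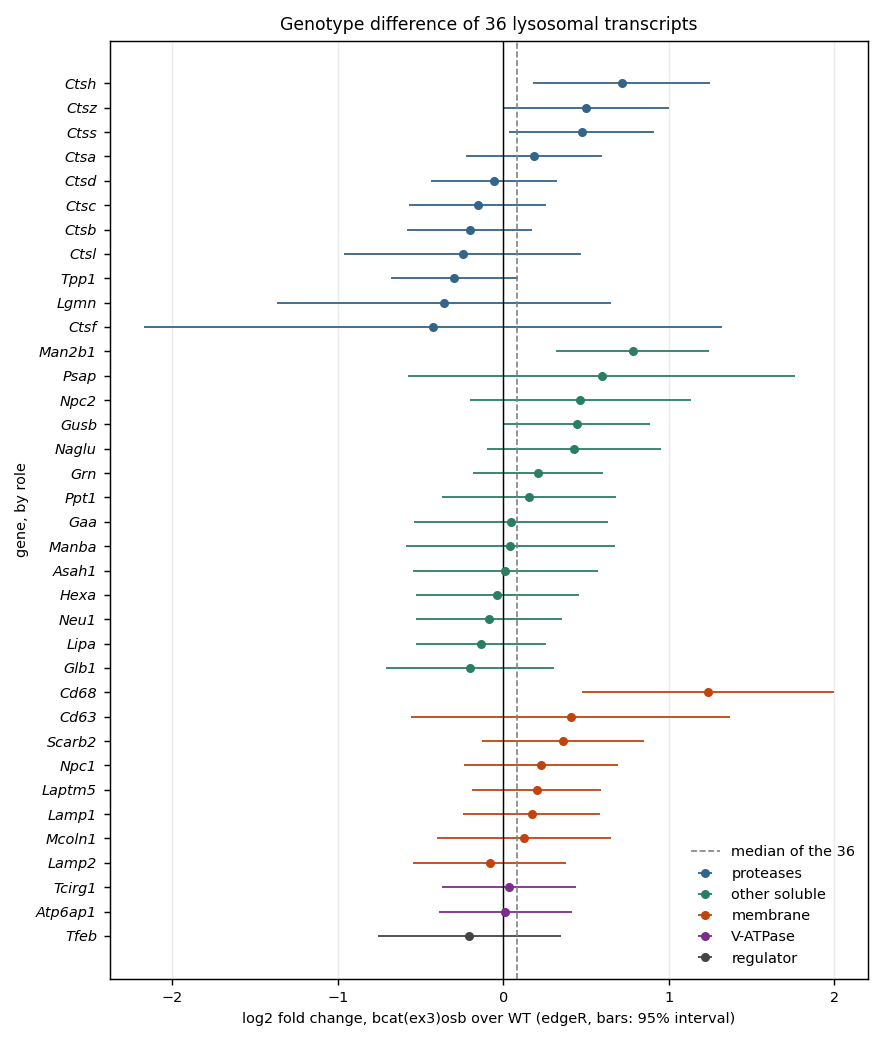
Log2 fold change of each of the 36 lysosomal transcripts, bcat(ex3)osb over WT, with its 95% interval from edgeR's quasi-likelihood fit (3 mice per group). Genes run down the page by role, and the dashed line marks the median of the 36 at 0.09. Cd68, Man2b1, Ctsh, Ctss and Gusb have intervals above 0, and Ctsf has the widest.

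The promoters of 5 of these genes are printed to show whether they hold the E-box that TFEB and its relatives recognise. Cd68 and Man2b1 had the largest fitted differences, Lamp1 and Ctsd small ones, and Naglu one in between. Genes with small differences whose windows hold no CACGTG, such as Hexa, Lipa and Neu1, are not printed. Each window runs from 250 bases before to 50 bases after an annotated start, on the gene's own strand, from RefSeq on GRCm38.p6, and capitals mark CACGTG with an adjoining T or A where it forms TCACGTG on either strand.
Cd68 (chr11:69666121-69666420, minus strand): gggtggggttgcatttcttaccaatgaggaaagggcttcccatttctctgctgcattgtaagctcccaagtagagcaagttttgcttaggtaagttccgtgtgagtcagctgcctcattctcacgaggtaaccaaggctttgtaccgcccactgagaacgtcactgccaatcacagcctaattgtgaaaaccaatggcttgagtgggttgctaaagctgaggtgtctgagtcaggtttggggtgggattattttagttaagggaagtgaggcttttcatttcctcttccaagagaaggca
Man2b1 (chr8:85083019-85083318, plus strand): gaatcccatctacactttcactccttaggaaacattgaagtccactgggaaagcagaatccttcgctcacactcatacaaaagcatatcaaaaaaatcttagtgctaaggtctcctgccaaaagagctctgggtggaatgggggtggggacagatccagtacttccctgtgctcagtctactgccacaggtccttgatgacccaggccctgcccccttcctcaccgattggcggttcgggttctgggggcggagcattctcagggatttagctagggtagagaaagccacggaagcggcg
Naglu (chr11:101069844-101070143, plus strand): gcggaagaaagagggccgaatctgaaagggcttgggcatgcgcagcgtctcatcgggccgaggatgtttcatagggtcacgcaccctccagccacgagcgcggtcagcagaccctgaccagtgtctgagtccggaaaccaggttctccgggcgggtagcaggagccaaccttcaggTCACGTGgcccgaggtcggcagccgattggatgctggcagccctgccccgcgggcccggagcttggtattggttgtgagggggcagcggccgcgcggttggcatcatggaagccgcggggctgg
Lamp1 (chr8:13158911-13159210, plus strand): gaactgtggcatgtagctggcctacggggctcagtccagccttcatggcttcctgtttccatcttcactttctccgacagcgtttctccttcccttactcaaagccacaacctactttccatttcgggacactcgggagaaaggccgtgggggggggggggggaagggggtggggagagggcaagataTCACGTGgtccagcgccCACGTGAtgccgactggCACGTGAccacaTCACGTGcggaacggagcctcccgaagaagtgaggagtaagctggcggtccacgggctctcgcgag
Ctsd (chr7:142387778-142388077, minus strand): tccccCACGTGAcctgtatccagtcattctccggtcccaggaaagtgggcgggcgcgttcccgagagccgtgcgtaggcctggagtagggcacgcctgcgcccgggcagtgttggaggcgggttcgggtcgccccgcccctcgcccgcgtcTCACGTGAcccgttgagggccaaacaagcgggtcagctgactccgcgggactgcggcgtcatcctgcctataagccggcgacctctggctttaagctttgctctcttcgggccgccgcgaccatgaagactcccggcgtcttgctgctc

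The windows of Cd68 and Man2b1, the transcripts with the largest differences, held no CACGTG, that of Naglu held 1, that of Ctsd 2 and that of Lamp1 4, between 61 and 10 bases before its start. The Man2b1 window lies wholly inside the RefSeq span of the gene, which begins at chr8:85082730. The bases before that first start were not searched. Naglu, which encodes the lysosomal N-acetylglucosaminidase of heparan sulfate breakdown, had a log2 fold change of 0.43 ± 0.23 (SE), Lamp1 0.17 ± 0.18 and Ctsd -0.06 ± 0.17. A window was matched by symbol for 32 of the 36 genes, all but Ctsb, Ctsh, Asah1 and Npc1. CACGTG, which reads the same on both strands, stood in a window of 10 of these 32 (31.2%), against 11.8% of 9444 tested genes with a window. Counted by window, it stood in 10 of the 39 windows of the 32 genes (25.6%), against 7.15% of all 32851 windows. The longer TCACGTG, which contains that core, was found on either strand for 8 of the 32 (25%), against 7% of the tested genes. By window these shares were 20.5% of the 39 windows and 3.77% of all windows. The 10 genes with CACGTG were Ctsa, Ctsd, Ctsf, Ctsl, Lgmn, Gaa, Glb1, Naglu, Lamp1 and Mcoln1. Their log2 fold changes lay between -0.43 and 0.43 with a median of -0.0048, and the other 22 had a median of 0.18. Split by TCACGTG, the medians were 0.09 for the 8 genes with it and 0.10 for the rest. A match is a description of the letters and not of binding, and a window without one says nothing of the rest of the gene.

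**Figure D2:**
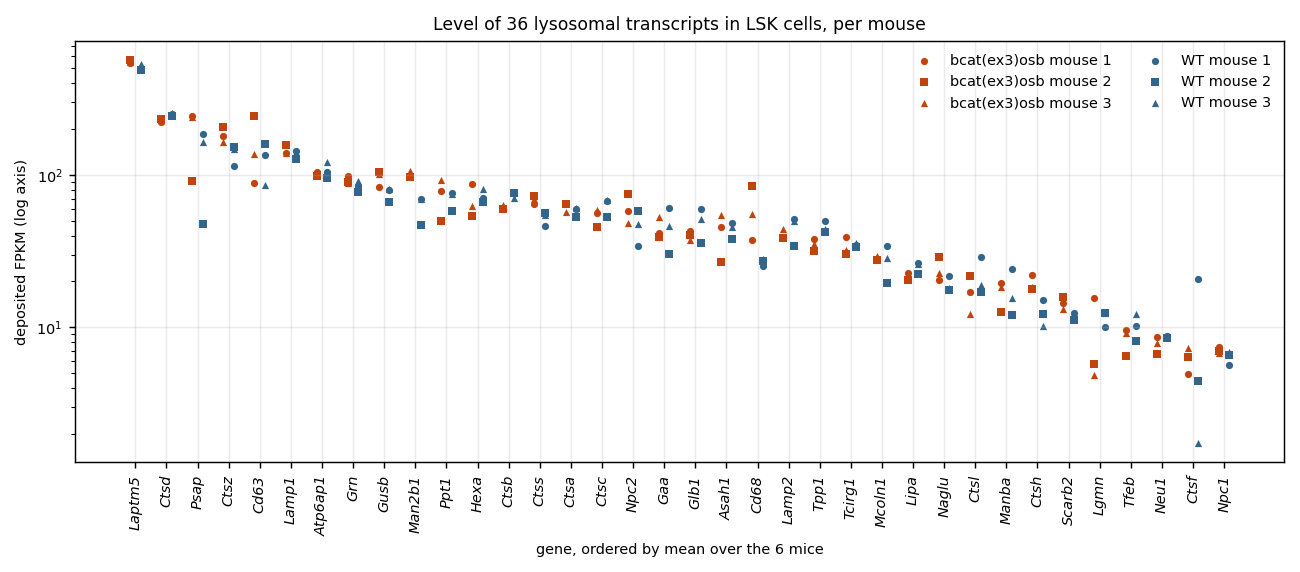
Deposited FPKM of the 36 lysosomal transcripts on a log axis in each mouse, bcat(ex3)osb points left of WT points, with genes ordered by their mean over the 6 mice. Laptm5 and Ctsd stand at the top in both groups, and Psap, Cd68, Lgmn and Ctsf spread most between mice.

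Levels were compared between genes by FPKM, which is relative to gene length. Laptm5, a lysosomal transmembrane protein of blood cells, was the highest of the 36 in both genotypes, with 542, 569 and 551 FPKM in bcat(ex3)osb mice 1, 2 and 3 and 504, 492 and 532 FPKM in WT mice 1, 2 and 3. The aspartic protease cathepsin D (Ctsd) followed with means of 228 ± 3.71 FPKM in bcat(ex3)osb and 251 ± 5.94 FPKM in WT mice (SD, n = 3 each). Together with Ctsz, Psap, Lamp1 and Cd63 these were the 6 most abundant in both genotypes. At the other end, Ctsf was the lowest of the 36 in bcat(ex3)osb mice, and Npc1 the lowest in WT mice. Ctsf averaged 6.23 ± 1.22 FPKM in bcat(ex3)osb and 8.98 ± 10.3 FPKM in WT mice. Npc1, the cholesterol exporter of the lysosomal membrane, averaged 7.05 ± 0.30 FPKM in bcat(ex3)osb and 6.37 ± 0.64 FPKM in WT mice. The sialidase Neu1 averaged 7.70 ± 0.96 FPKM in bcat(ex3)osb and 8.62 ± 0.14 FPKM in WT mice, and Tfeb 8.39 ± 1.69 FPKM in bcat(ex3)osb and 10.2 ± 2.08 FPKM in WT mice. Laptm5 did not overlap Ctsd in either genotype, whereas the range of Cd63 met those of Ctsz and Lamp1 in both. By mean FPKM, Cd68 was 17th of the 36 in bcat(ex3)osb mice and 25th in WT mice. Man2b1 was 8th in bcat(ex3)osb mice and 14th in WT mice.

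Among the 11 proteases, 3 cathepsins (27.3%) lay higher in every bcat(ex3)osb mouse than in any WT mouse and 2 proteases (18.2%) lay lower. Over all genes tested these shares were 6.87% and 7.67%. The summed level of the 11 was 1677, 1855 and 1587 CPM in bcat(ex3)osb mice 1, 2 and 3 and 1680, 1685 and 1686 CPM in WT mice 1, 2 and 3. Ctsh, an aminopeptidase, was at 36.2, 32.0 and 28.9 CPM in bcat(ex3)osb mice 1, 2 and 3 and at 23.1, 19.9 and 16.05 CPM in WT mice 1, 2 and 3. Its log2 fold change was 0.72 ± 0.23 (SE), with an unadjusted p of 0.0148 and an adjusted p of 0.580. Ctss, a cysteine protease that trims the invariant chain of MHC class II, was at 88.2, 109 and 91.7 CPM in bcat(ex3)osb mice and at 59.8, 76.8 and 71.4 CPM in WT mice. Cathepsin S thus had a gap between the groups of less than the range within either, and its log2 fold change was 0.47 ± 0.19 (unadjusted p = 0.0375, adjusted p = 0.722). Ctsz, a carboxypeptidase, was at 251, 320 and 224 CPM in bcat(ex3)osb mice and at 151, 212 and 199 CPM in WT mice, a log2 fold change of 0.50 ± 0.22 (unadjusted p = 0.0517, adjusted p = 0.764). Its highest value was that of bcat(ex3)osb mouse 2, and without that mouse the log2 fold change was 0.34.

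The 2 proteases on the other side had small differences. Tpp1, a tripeptidyl peptidase, was at 133, 123 and 120 CPM in bcat(ex3)osb mice and at 165, 147 and 150 CPM in WT mice, a log2 fold change of -0.30 ± 0.17 (adjusted p = 0.819). Ctsb, an abundant cysteine protease, was at 283, 313 and 295 CPM in bcat(ex3)osb mice and at 341, 360 and 325 CPM in WT mice, a log2 fold change of -0.20 ± 0.16 (adjusted p = 0.884). Neither group overlapped the other in these genes, and the gaps were narrower than the range among the WT mice. Ctsd was at 440, 501 and 437 CPM in bcat(ex3)osb mice and at 467, 480 and 486 CPM in WT mice, so the groups overlapped, with a 95% interval of the log2 fold change from -0.44 to 0.33. Ctsa, a carboxypeptidase that also protects β-galactosidase and sialidase, had a log2 fold change of 0.19 ± 0.18, Ctsc, which activates granule serine proteases, -0.16 ± 0.18 and the cysteine protease Ctsl -0.25 ± 0.31.

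Lgmn and Ctsf varied among mice of a group by more than between the groups. Lgmn, an asparaginyl endopeptidase that processes cathepsins, was at 29.1, 11.9 and 8.87 CPM in bcat(ex3)osb mice 1, 2 and 3 and at 17.9, 23.5 and 22.7 CPM in WT mice. Mutant mice 2 and 3 were thus below the 3 WT mice and mutant mouse 1 above them, and the log2 fold change was -0.36 ± 0.44 with all mice and -1.04 without bcat(ex3)osb mouse 1. The cysteine protease gene Ctsf was at 9.80, 14.1 and 14.1 CPM in bcat(ex3)osb mice and at 38.8, 8.85 and 3.31 CPM in WT mice. One WT mouse, number 1, set its direction: the log2 fold change was -0.43 ± 0.76 with all mice and 1.06 without WT mouse 1.

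Among the 14 other soluble proteins, which break down glycans and lipids or assist that breakdown, 10 had a positive and 4 a negative log2 fold change. Higher without overlap were 2 of the 14 (14.3%), beside 6.87% of all genes tested. Man2b1, which removes mannose from N-glycans, was at 423, 468 and 446 CPM in bcat(ex3)osb mice 1, 2 and 3 and at 283, 203 and 291 CPM in WT mice 1, 2 and 3. The spread of the bcat(ex3)osb mice was small and the gap between the groups was larger than the range within either. Its log2 fold change was 0.78 ± 0.20 (unadjusted p = 0.00447, adjusted p = 0.472), and WT mouse 2 was the lowest of the 6. Gusb, the β-glucuronidase, was at 207, 285 and 243 CPM in bcat(ex3)osb mice and at 184, 163 and 192 CPM in WT mice, a log2 fold change of 0.45 ± 0.19 (unadjusted p = 0.0481, adjusted p = 0.756). The nearest mice of the 2 groups were bcat(ex3)osb mouse 1 and WT mouse 3.

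Psap encodes prosaposin, the precursor of the saposin activators of sphingolipid hydrolases, and it was at 672, 275 and 638 CPM in bcat(ex3)osb mice 1, 2 and 3 and at 482, 131 and 437 CPM in WT mice 1, 2 and 3. The mice numbered 2 were the lowest in both genotypes, and these are the libraries with the high ribosomal protein shares given above. The part of that share in the level of Psap was not tested. The log2 fold change of Psap was 0.59 ± 0.51 (adjusted p = 0.891), and it was 0.90 without bcat(ex3)osb mouse 2 and 0.20 without WT mouse 2. The glycosidases Glb1, Hexa, Gaa and Manba had log2 fold changes of -0.20 ± 0.22, -0.04 ± 0.21, 0.05 ± 0.25 and 0.04 ± 0.27. The sialidase Neu1, the acid lipase Lipa and the acid ceramidase Asah1 had -0.09 ± 0.19, -0.13 ± 0.17 and 0.01 ± 0.24. The thioesterase Ppt1, progranulin (Grn) and the sterol-binding Npc2 had 0.15 ± 0.23, 0.21 ± 0.17 and 0.47 ± 0.29. These 10 overlapped between the genotypes, as did Naglu and Psap.

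Of the 8 membrane proteins, 7 had a positive log2 fold change and 4 (50%) lay higher without overlap, beside 6.87% of all genes tested. Cd68, a mucin-like relative of the LAMP proteins, was at 38.1, 94.3 and 54.2 CPM in bcat(ex3)osb mice 1, 2 and 3 and at 24.2, 27.4 and 27.6 CPM in WT mice 1, 2 and 3. The WT mice lay close together and the bcat(ex3)osb mice spread widely, with mouse 2 far above the other two. The log2 fold change was 1.24 ± 0.33 (unadjusted p = 0.00569, adjusted p = 0.486), and without bcat(ex3)osb mouse 2 it was 0.81. Scarb2, the receptor that carries glucocerebrosidase to the lysosome, was at 30.7, 36.8 and 27.2 CPM in bcat(ex3)osb mice and at 24.6, 23.7 and 25.4 CPM in WT mice, a log2 fold change of 0.36 ± 0.21 (adjusted p = 0.843). Laptm5 was at 1306, 1514 and 1289 CPM in bcat(ex3)osb mice and at 1145, 1185 and 1239 CPM in WT mice, a log2 fold change of 0.20 ± 0.17 (adjusted p = 0.890). For Lamp1, a main structural protein of the lysosomal membrane, the values were 314, 392 and 308 CPM in bcat(ex3)osb mice and 307, 286 and 307 CPM in WT mice. The groups of Lamp1 were separated by less than 1 CPM, and Lamp1, Scarb2 and Laptm5 each had their highest value in bcat(ex3)osb mouse 2.

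Cd63, a tetraspanin of late endosomes and secretory granules, was at 92.1, 280 and 137 CPM in bcat(ex3)osb mice 1, 2 and 3 and at 133, 165 and 85.9 CPM in WT mice 1, 2 and 3. The mice numbered 2 were the highest in both genotypes, the reverse of Psap, and the log2 fold change was 0.41 ± 0.42 with all mice and -0.16 without bcat(ex3)osb mouse 2. Lamp2, the partner of Lamp1 that also serves chaperone-mediated autophagy, had a log2 fold change of -0.08 ± 0.20, the calcium channel Mcoln1 0.12 ± 0.23 and Npc1 0.23 ± 0.20. Both V-ATPase genes overlapped between the genotypes: the osteoclast-rich subunit gene Tcirg1 had a log2 fold change of 0.04 (95% interval -0.37 to 0.44) and the accessory subunit Atp6ap1 0.01 (-0.39 to 0.41).

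Tfeb itself was at 27.3, 20.3 and 25.1 CPM in bcat(ex3)osb mice 1, 2 and 3 and at 27.2, 23.0 and 33.6 CPM in WT mice 1, 2 and 3. The groups overlapped, with a log2 fold change of -0.20 ± 0.24 (adjusted p = 0.914) and a 95% interval from -0.76 to 0.35. TFEB is controlled largely by its place in the cell, which these transcript levels do not measure.

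**Figure D3:**
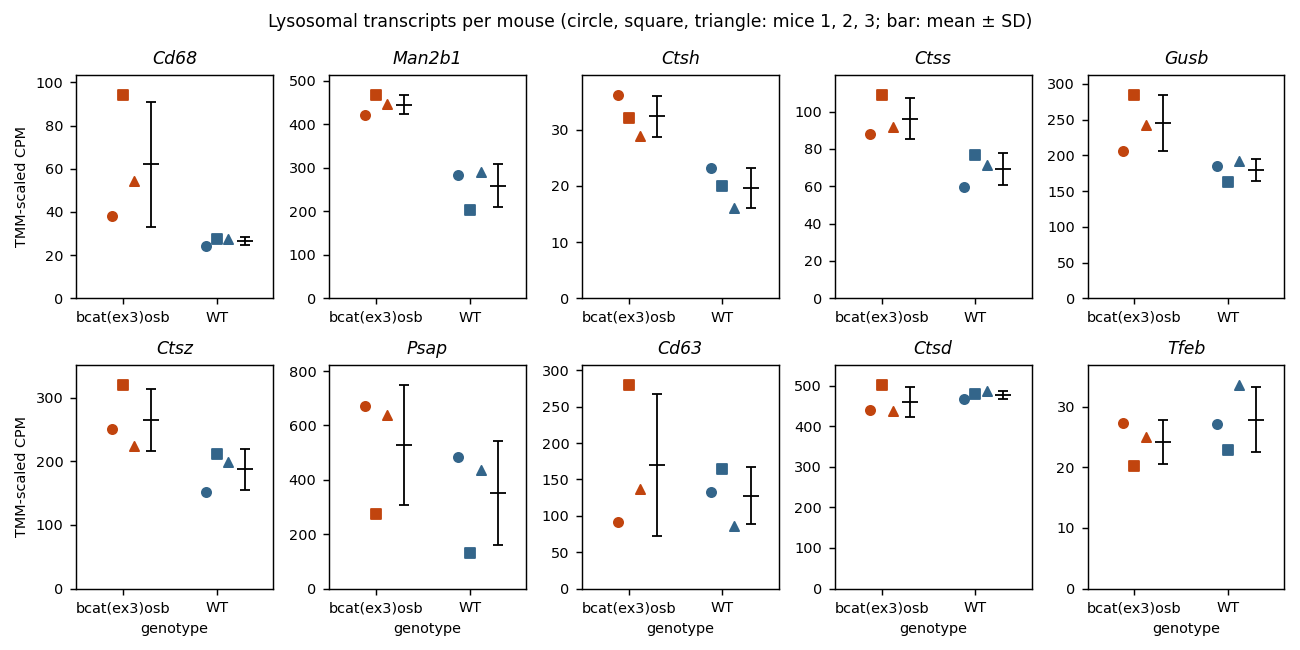
TMM-scaled CPM of 10 lysosomal transcripts in each mouse, bcat(ex3)osb left and WT right, with mean ± SD beside the points (n = 3 each). Cd68, Man2b1, Ctsh, Ctss, Gusb and Ctsz separate by genotype, Psap and Cd63 follow the mice numbered 2 in both genotypes, and Ctsd and Tfeb overlap.

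Other genes of the lysosome and its supply lines, from 7 lists, gave 0 calls at the adjusted threshold. Over all genes tested, 6.87% lay higher and 7.67% lower without overlap. Of 38 tested further hydrolases, 5 lay higher (13.2%) and 6 lower (15.8%) without overlap, with a median log2 fold change of 0.03. Among these, 2 related phospholipase D family proteins lay on opposite sides. Pld4, an endolysosomal exonuclease of myeloid and dendritic cells, was at 176, 121 and 68.8 CPM in bcat(ex3)osb mice and at 41.5, 32.7 and 61.8 CPM in WT mice, a log2 fold change of 1.43 ± 0.38 (adjusted p = 0.480). Pld3, its broadly expressed relative, was at 33.2, 30.8 and 44.0 CPM in bcat(ex3)osb mice and at 77.2, 59.5 and 68.6 CPM in WT mice, a log2 fold change of -0.93 ± 0.22 (adjusted p = 0.404). DESeq2 called both.

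Of 29 further membrane proteins, 1 lay higher and 1 lower without overlap (3.45% each), beside 6.87% and 7.67% of all genes tested. The 2 with the smallest unadjusted p were Hgsnat, a heparan sulfate acetyltransferase (0.51 ± 0.28), and Ostm1, the partner of the chloride transporter ClC-7 (0.37 ± 0.24). Of the 14 tested V-ATPase genes 2 lay higher (14.3%) and 1 lower (7.14%) without overlap, with Atp6ap2 at 0.38 ± 0.18 and the catalytic subunit Atp6v1a at -0.39 ± 0.23. Of 18 genes of the MiT/TFE factors and the nutrient-sensing complex, 0 lay higher and 2 lower (11.1%) without overlap. Rragd, a Rag GTPase, had at most 0.388 CPM in bcat(ex3)osb mice and at least 0.922 CPM in WT mice (-2.09 ± 0.72). It had 5 to 7 counts per library in bcat(ex3)osb mice and 19, 16 and 56 counts in WT mice 1, 2 and 3. Rragd thus passed the count filter through the WT mice only, the group where it was higher. Fnip1, a folliculin partner, had -0.47 ± 0.31 with overlapping groups. Of 26 sorting genes, 3 lay higher (11.5%) and 1 lower (3.85%), among them Lyst, the Chediak-Higashi protein (0.46 ± 0.22), while the adaptor Gga2 had -0.50 ± 0.22 with overlapping groups. Of the 19 autophagy genes, 0 lay higher and 2 lower (10.5%) without overlap, with Wipi1 at 0.91 ± 0.47 and the receptor Optn at -0.82 ± 0.42.

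Of 10 listed genes of protease inhibitors 3 were tested, all of them of the cystatin family of cathepsin inhibitors. Cst7, which is known from myeloid and cytotoxic cells, was at 134, 185 and 110 CPM in bcat(ex3)osb mice 1, 2 and 3 and at 34.6, 93.3 and 79.6 CPM in WT mice 1, 2 and 3, without overlap. Its log2 fold change was 1.05 ± 0.37 (unadjusted p = 0.0230, adjusted p = 0.650). Cst3, the secreted cystatin C, was at 526, 618 and 706 CPM in bcat(ex3)osb mice and at 239, 556 and 327 CPM in WT mice, with overlapping groups and a log2 fold change of 0.72 ± 0.31 (adjusted p = 0.761).

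Marker lists of other cell types also differed between the mice. Over all genes tested, 6.87% lay higher and 7.67% lower without overlap. The 20 markers of granulocyte-monocyte progenitors summed to 12021, 15993 and 9084 CPM in bcat(ex3)osb mice 1, 2 and 3 and to 2921, 6071 and 5560 CPM in WT mice 1, 2 and 3, and 15 of the 20 lay higher without overlap. Mpo, the myeloperoxidase of primary granules, and Calr, a chaperone, were its highest genes, and Mpo held between 4544 and 6471 CPM of that sum in bcat(ex3)osb mice, against 1040 to 2597 CPM in WT mice. The 16 tested monocyte and dendritic markers, with Flt3 and Cd74 the highest, were all positive in log2 fold change, with 6 higher without overlap, and the 17 listed genes summed to 2190, 1313 and 4301 CPM in bcat(ex3)osb mice, against 1657, 1409 and 1362 CPM in WT mice. Of 12 tested macrophage markers, with Axl and Slc40a1 the highest, 11 were negative and 5 lay lower without overlap. The 14 listed macrophage genes in the tables summed to 28.05, 17.9 and 92.2 CPM in bcat(ex3)osb mice and to 166, 120 and 97.5 CPM in WT mice. Cd5l and Mertk had 0 counts in the 3 bcat(ex3)osb libraries. In WT mice 1, 2 and 3, Cd5l had 68, 41 and 49 counts, so it passed the count filter through the WT mice only. Mertk had 16, 17 and 0 counts in these WT mice, overlapped between the groups and was not tested. Of 5 tested osteoclast markers, among which Nfatc1 and Acp5 were highest, 0 lay higher and 1 lower without overlap. Another 5 listed osteoclast genes were not tested. Among them, Ctsk and Oscar had 0 counts in the 3 bcat(ex3)osb libraries and at most 3 and 4 counts in a WT library. Ocstamp and Atp6v0d2 went the other way. Ocstamp had 0, 20 and 9 counts in bcat(ex3)osb mice and 0, 0 and 4 in WT mice. Atp6v0d2 had 0, 0 and 13 counts in bcat(ex3)osb mice and 0, 0 and 2 in WT mice. Calcr had 0 counts in all 6 libraries. All 11 mast cell, basophil and eosinophil markers, with Gata2 and Prg2 the highest, were positive, and all 13 B cell markers, with Igll1 and Cd79b the highest, were negative. B cell markers summed to 721, 103 and 89.7 CPM in bcat(ex3)osb mice and to 720, 1116 and 1245 CPM in WT mice. Of 9 tested neutrophil markers, led by S100a8 and Ngp, 1 lay higher and 1 lower without overlap (11.1% each). The lower marker passed the count filter through the WT mice only. The T and NK cell list (Lck, Cd4) and the erythroid list (Tfrc, Alas2) had 5 tested genes each, all with overlapping groups. Of 5 tested megakaryocyte genes, 1 lay higher without overlap (20%), Itga2b, with a log2 fold change of 1.75 ± 0.38. Of 4 tested stromal genes, 2 lay lower without overlap (50%), among them Alpl (-2.64 ± 0.83). Pdgfrb had 0.90 ± 0.35 with overlapping groups. The part of these cell types in the differences of Cd68, Man2b1, Ctsh and Ctss was not tested.

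**Figure D4:**
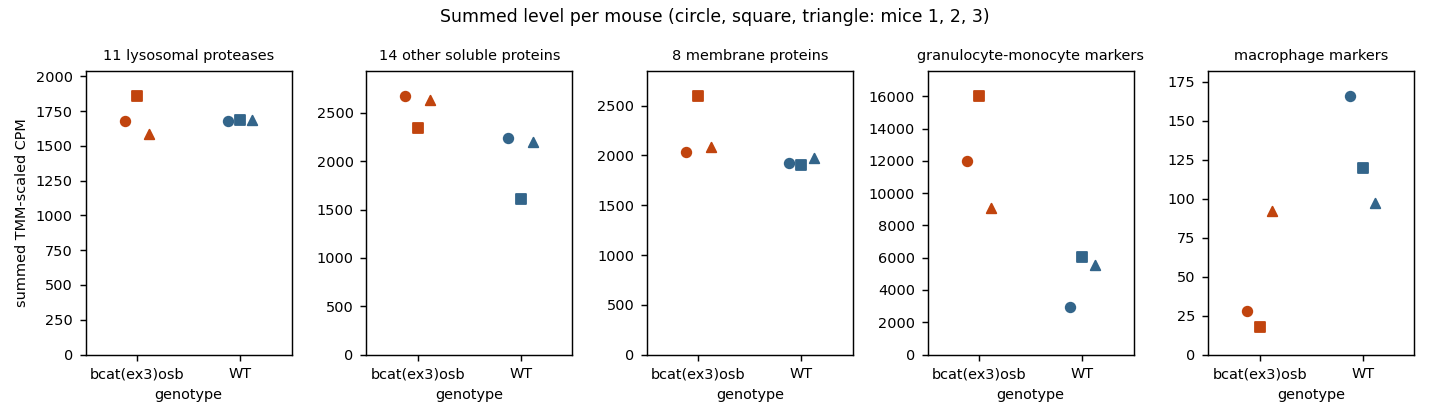
Summed TMM-scaled CPM per mouse of the 11 lysosomal proteases, 14 other soluble proteins and 8 membrane proteins, beside the marker lists of granulocyte-monocyte progenitors and macrophages, bcat(ex3)osb left and WT right. The protease sums lie between 1587 and 1855 CPM in all 6 mice and overlap. The sums of other soluble proteins, of membrane proteins and of granulocyte-monocyte markers are higher in each bcat(ex3)osb mouse than in any WT mouse. The macrophage sums are lower in each. Of the membrane sums of 2035, 2593 and 2083 CPM in bcat(ex3)osb mice 1, 2 and 3, Laptm5 alone held 1306, 1514 and 1289 CPM. In WT mice 1, 2 and 3, Laptm5 held 1145, 1185 and 1239 of 1927, 1901 and 1975 CPM.

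The higher values were not evenly shared between the mutant mice. Of the 36 transcripts, 20 lay above the highest WT mouse in bcat(ex3)osb mouse 1, 16 in mouse 2 and 13 in mouse 3, while 4, 9 and 9 lay below the lowest WT mouse in mice 1, 2 and 3. Over all genes tested, 22.2%, 34.1% and 23.9% lay above and 24.0%, 36% and 22.2% below in the same mice. Mutant mouse 2 held the highest value of the 6 mice for 14 of the 36 transcripts, and WT mouse 2 the lowest for 13. The matching shares over all genes were not computed, so these 2 counts are not read as particular to lysosomal genes. Sex was confounded in part, since 2 of the 3 bcat(ex3)osb mice were male and all WT mice female by Xist and Y-linked counts. With sex as a covariate, where the genotype difference rests on bcat(ex3)osb mouse 3, the log2 fold change was 0.78 for Man2b1 (unadjusted p = 0.0364), 1.04 for Cd68 (unadjusted p = 0.0602), 0.55 for Ctsh (unadjusted p = 0.147) and 0.26 for Ctsz (unadjusted p = 0.440). Ctss and Gusb then had unadjusted p of 0.213 and 0.187, and the adjusted p of these 6 genes was 1.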

How the data were processed

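Per the labels' protocols, the AllPrep kit gave the RNA and the TruSeq Stranded Total RNA kit the libraries. The submitters' processing notes name bcl2fastq 2.17, STAR 2.5.2b, mm10 and featureCounts 1.5.0-p3. No source used here gives the annotation, the strand setting or the handling of reads with several matches. The count values that the authors deposited are raw whole numbers for each gene. Their FPKM values, also deposited, are those counts relative to gene length and library total, and the length stands in a further column, per the file headers. Exon overlaps were taken from GENCODE vM21. They reach 34.4% of exon bases for Ctsd, with a gene on the same strand, and 26.8% for Ctsl, with one on the opposite strand. Further overlaps on the same strand cover 6.09% for Ctsl and 5.49% for Glb1.

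Genes with 10 or more counts in 3 or more libraries entered the edgeR fit (version 4.0.16, R 4.3.3; TMM scaling, quasi-likelihood F test, two-sided, genotype as the only term), with Benjamini-Hochberg adjustment and a threshold of 0.05. CPM were computed from the counts with TMM-scaled library sizes, and SE come from the F statistic. The 95% intervals use the fit's own degrees of freedom. The members and all gene lists were chosen with earlier results of these data known. The text names all 36 members, the 2 genes with the smallest unadjusted p of each of 7 related lists, the 2 markers with the highest mean CPM of each list of another cell type, and Kit, Ly6a and Ctnnb1. It also names Cd5l, Mertk, Ctsk, Oscar, Ocstamp, Atp6v0d2 and Calcr, which were chosen after their values were seen. A withheld marker is not reported here. No exact permutation test of 3 against 3 goes below p = 0.10. The fit was tested on simulated data for bcat(ex3)osb against WT (12713 genes, 5 runs): it called 7.20% of genes changed 2-fold and 69.4% of those changed 4-fold, with 8.37% false calls. Alternatives were RLE and upper-quartile scaling, DESeq2 1.42.0, limma-voom (limma 3.58.1), other filters, limma on log2 of FPKM with 1 or 0.1 added, a block for the mouse number, a sex covariate, an offset for gene length, robust dispersions, a threshold of 0.10 and fits without each mouse in turn.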

Additional observations from a re-analysis of the deposited data

How the results depend on the processing

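By edgeR, 0 genes passed at a threshold of 0.05, and 435 higher and 398 lower genes had an unadjusted p under 0.05. The adjusted count was also 0 under the other scalings, filters, the FPKM settings, limma-voom, sex as a covariate, the length offset, the robust fit and a threshold of 0.10. DESeq2 called 103 genes higher and 69 lower, 2 of the 36 lysosomal genes among the higher. Leaving out 1 mouse at a time gave 0 to 1 genes higher and 0 to 13 lower, with the 13 without bcat(ex3)osb mouse 1. With the mouse number as a replicate block 5 genes were higher, 0 of the 36 among them. Same-numbered mice correlated in their deviations from the group means at 0.101, 0.340 and 0.0745, and bcat(ex3)osb mouse 1 correlated more with WT mouse 3 (0.127), so the numbers were not taken to pair the mice. The lysosomal median of 0.09 was 0.24 with the length trend removed, a setting that moved the median of all genes to 0.11, and lay between -0.0023 and 0.19 when a mouse was left out, the lowest without WT mouse 2.

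Of 648 values of the 36 genes over 18 settings, 605 kept the direction of the reported fit, and 21 genes kept it in every setting. The cause of the other values was not tested. The log2 fold changes on the other side of 0 were as follows. With upper-quartile scaling they were -0.024 for Asah1, -0.024 for Atp6ap1 and -0.0036 for Tcirg1. By limma-voom they were 0.24 for Ctsf and -0.023 for Asah1. On log2 of FPKM plus 1 they were 0.060 for Ctsf, -0.0012 for Manba, -0.10 for Asah1, -0.063 for Atp6ap1, -0.048 for Tcirg1 and -0.012 for Nfatc1. On log2 of FPKM plus 0.1 they were 0.16 for Ctsf, -0.10 for Asah1, -0.063 for Atp6ap1, -0.049 for Tcirg1 and -0.012 for Nfatc1. With the replicate block they were 0.29 for Ctsf and -0.024 for Asah1. With sex as a covariate they were -0.018 for Ctsa, -0.066 for Atp6ap1, -0.11 for Tcirg1, -0.31 for Wipi1 and 0.089 for Kit. With the length trend removed they were 0.019 for Ctsd, 0.038 for Hexa, 0.040 for Neu1, 0.0026 for Lipa and 0.14 for Lamp2. The log2 fold change of Flt3 was -0.0024 with upper-quartile scaling and -0.025 on either FPKM scale. Leaving out a mouse gave ranges of -0.14 to 0.34 for Manba, -0.17 to 0.22 for Asah1, -0.064 to 0.10 for Tcirg1, -0.21 to 0.27 for Nfatc1, -0.24 to 0.062 for Hexa, -0.16 to 0.71 for Cd63 and -0.046 to 0.11 for Atp6ap1. For the others that changed direction the ranges were -0.16 to 0.28 for Gaa, -0.0060 to 0.33 for Ppt1, -0.12 to 0.25 for Flt3, -0.91 to 1.06 for Ctsf, -2.12 to 0.60 for Ngp, -2.44 to 0.84 for Alas2 and -0.055 to 0.29 for Mcoln1. Man2b1 lay between 0.63 and 1.02 over the 18 settings, with adjusted p from 0.0226 to 1, and Cd68 between 0.81 and 1.49, with adjusted p from 0.0452 to 1.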
